A study of Homo sapiens with 9 samples.

Results

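The genes described here are 39 genes of glucose breakdown and of the response to low oxygen, read by symbol from count tables of 60683 genes. They were taken in 3 groups. The glycolytic enzymes are 17 genes that carry glucose to lactate. A second group holds 11 genes of sugar and lactate transport, of the control of glycolysis and of glycogen. The other hypoxia targets are 11 genes outside glycolysis that low oxygen is known to induce. Each symbol matched 1 row, and 38 of the 39 passed the filter on low counts; the exception was SLC2A3, a high-affinity glucose transporter, with 1 count over all libraries.

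The libraries are mRNA of human cells labelled HCT-15, a line from a colorectal adenocarcinoma, with genotype given as WT and no other allele or agent named for all groups. Oxaliplatin cells (3 libraries) began with 7 days in 0.5 µM of this platinum drug, went through 1, 2 and 4 µM between days 10 and 30, and were then kept in 4 µM. Sorafenib cells (3 libraries) were adapted in a similar way to this inhibitor of RAF and receptor tyrosine kinases, at doses the labels do not give. Untreated cells (3 libraries) are the reference for both drugs, so the drug comparisons share their controls. The titles of a group's 3 libraries share a code whose meaning is not given, and the labels do not state whether each is a culture of its own; p-values therefore reflect how far libraries of a group differ, possibly for technical reasons, and a drug-adapted line may be a single selected population.

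Glycolysis converts glucose to pyruvate in the cytosol, and lactate dehydrogenase reduces pyruvate to lactate. When oxygen is low, the subunits HIF-1α and HIF-2α escape degradation, pair with ARNT and bind the DNA letters ACGTG or GCGTG, which raises transcription of glucose transporters, most glycolytic enzymes and genes such as VEGFA. Many tumour cell lines run glycolysis at a high rate also in the presence of oxygen.

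Total counts ran between 15797076 and 20936536 per library, and levels are given as CPM, counts scaled to library size with TMM factors. Replicate libraries differed by more than sampling noise, with a chi-square per degree of freedom of 18.1 to 38.7. On the first principal component, which held 36.6% of the variance, untreated 1 lay at -24.2, beside sorafenib 1 at -23.1 and apart from untreated 2 and 3 at -59.5 and -45.6. Of 11 markers of colorectal epithelium, all had a median under 1 CPM and 7 had no count in any library, among them CDX2, CDH1 and KRT20; with 0 counts a level of up to 0.138 to 0.182 CPM by library (3 counts) remains possible, from counting error only. Of 10 markers of renal epithelium, 5 had a median of at least 10 CPM, and their summed level was 792 to 861 CPM in oxaliplatin, 802 to 1016 CPM in sorafenib and 529 to 796 CPM in untreated libraries. These marker levels go against the labelled tissue, so the identity of the cells is in doubt, and they are named here by their label. The titles of all libraries, in every group, also carry the same number. The labels do not say whether this number names a cell line, and its bearing on the identity of the cells was not tested. Of 9 renal markers tested, 5 were called higher and 1 lower in oxaliplatin (66.7% called, against 31.7% of all genes) and 1 higher and 0 lower in sorafenib (11.1%, against 4.8%). The summed colorectal markers were 0.550 to 0.705 CPM in oxaliplatin, 0.568 to 1.25 CPM in sorafenib and 1.53 to 8.65 CPM in untreated libraries. The part of these markers in the results below was not tested. Of the markers of immune cells and of fibroblasts and endothelium, 5 of 6 in each list had a median under 1 CPM; the tested marker of fibroblasts and endothelium, COL1A1, was called lower in sorafenib, at a log2 fold change of -4.22.

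Promoter windows for 35 of the 39 genes were taken from RefSeq (GRCh38.p14), 64 windows in all, each read over the 250 bases before a transcription start. The letters ACGTG or GCGTG, searched on both strands, stood in 51.4% of the 37 windows of glycolytic enzymes, 61.1% of the 18 windows of the second group and 88.9% of the 9 windows of the other hypoxia targets, against 43.2% of 35116 windows of all genes. ACGTG alone stood in 37.8%, 27.8% and 77.8% of the 3 groups' windows and in 18.5% of all windows. These shares count windows and not genes, so genes with many windows weigh more. Most windows of HK1 and PFKM, for example, held no match. By gene, those with windows but no match were the enzymes PGAM1, PKM and LDHB, SLC2A1 and PYGL of the second group, and P4HA2. BNIP3L, NDRG1, VEGFA and SLC2A3 had no window. A palindrome CACGTG counts on both strands, windows of the same gene can overlap, and a match describes letters and not a bound site. The 5 windows below belong to genes on which the comparisons turn: PGAM1 (chr10:97427568-97427817, + strand) and GAPDH (chr12:6535014-6535263, + strand) fell in oxaliplatin, PFKFB3 (chr10:6144671-6144920, + strand) and PLOD2 (chr3:146161185-146161434, - strand) rose in oxaliplatin, and HK2 (chr2:74834920-74835169, + strand) rose in sorafenib. They are written 5′ to 3′ up to the base before the start site, with the matches in capitals. Windows sharing bases with annotated untranslated regions were not printed. By the annotated gene bounds, the printed windows of PGAM1, GAPDH, PLOD2 and HK2 lie inside the gene, and that of PFKFB3 lies just before it.
PGAM1: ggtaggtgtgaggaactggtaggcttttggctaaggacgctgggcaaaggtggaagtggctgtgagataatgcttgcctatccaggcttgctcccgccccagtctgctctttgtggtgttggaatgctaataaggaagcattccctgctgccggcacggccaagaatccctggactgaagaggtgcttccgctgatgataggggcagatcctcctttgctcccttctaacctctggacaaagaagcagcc
GAPDH: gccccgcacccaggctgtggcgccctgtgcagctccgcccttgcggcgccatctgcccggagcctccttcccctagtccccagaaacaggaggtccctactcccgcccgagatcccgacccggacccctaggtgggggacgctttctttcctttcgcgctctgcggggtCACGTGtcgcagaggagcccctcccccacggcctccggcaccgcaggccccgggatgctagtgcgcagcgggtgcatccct
PFKFB3: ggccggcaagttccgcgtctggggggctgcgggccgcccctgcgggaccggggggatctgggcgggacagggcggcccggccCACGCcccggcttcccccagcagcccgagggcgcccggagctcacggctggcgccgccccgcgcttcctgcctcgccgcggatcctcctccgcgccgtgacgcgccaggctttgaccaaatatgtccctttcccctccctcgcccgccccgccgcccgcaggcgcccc
PLOD2: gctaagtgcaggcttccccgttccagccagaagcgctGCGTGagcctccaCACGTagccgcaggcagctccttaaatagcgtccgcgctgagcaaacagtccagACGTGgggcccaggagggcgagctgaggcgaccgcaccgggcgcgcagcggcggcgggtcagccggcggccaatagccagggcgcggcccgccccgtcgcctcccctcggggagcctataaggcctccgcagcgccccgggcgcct
HK2: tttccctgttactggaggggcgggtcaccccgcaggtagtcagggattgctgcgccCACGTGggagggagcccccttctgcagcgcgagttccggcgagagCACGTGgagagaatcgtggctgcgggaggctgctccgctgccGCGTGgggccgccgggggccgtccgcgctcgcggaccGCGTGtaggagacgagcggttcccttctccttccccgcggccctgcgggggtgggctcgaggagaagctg
The PGAM1 window held no match, the PFKFB3 window 1, the GAPDH window 2, both from a single CACGTG, the PLOD2 window 3 and the HK2 window 6. A further window of HK2, which ends at the base before the annotated gene start, held 3 matches, and a further window of PFKFB3 held 2.

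Per kilobase of exon (GENCODE 29), glycolytic enzymes took the top 5 places of the 39 genes in untreated libraries. GAPDH, glyceraldehyde-3-phosphate dehydrogenase and a common reference gene in expression assays, averaged 1393 ± 92.6 CPM per kilobase in oxaliplatin, 2019 ± 169 in sorafenib and 2339 ± 418 in untreated libraries (SD, n = 3 each). LDHB, ENO1, TPI1 and PKM followed it in untreated libraries, between 619 and 248 CPM per kilobase on average. The ranges of TPI1 and PKM overlapped, and over the whole order 21 of 38 neighbouring pairs overlapped in untreated libraries while 17 stood apart. The length used is that of all annotated exons of a gene together, not of the transcript expressed, and the order depends on it. Without length scaling PKM (8571 bases) averaged 2121 ± 215 CPM in untreated libraries and LDHB (2983 bases) 1846 ± 215 CPM.

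Among the isoenzyme genes compared, the same member of each family led in every library. The shares depend on the same exon lengths, such as 6210 bases for LDHA and 2983 for LDHB. The further hexokinase HKDC1, described below, was not part of its family here. Its mean CPM, without length scaling, was above those of HK1 and HK2 in each group, so the hexokinase shares leave out an abundant member. LDHB, the heart-type lactate dehydrogenase subunit, made up 84.8% to 86.1% of the length-scaled level of LDHA plus LDHB in oxaliplatin, 87.4% to 88.4% in sorafenib and 85.2% to 89.9% in untreated libraries. PFKP, the platelet-type phosphofructokinase, held 76.5% to 76.9% of the 3 phosphofructokinase genes in oxaliplatin, 80.2% to 82.1% in sorafenib and 80.5% to 83.3% in untreated libraries. PYGB, the brain-type glycogen phosphorylase, held 89.7% to 91.3%, 94.8% to 95.1% and 90.7% to 92.5% of PYGB plus PYGL in the same order of groups. HK2 stood at 24.9% to 30.3% of HK1 plus HK2 in oxaliplatin, 37.9% to 43.3% in sorafenib and 28.1% to 32.2% in untreated libraries, so the sorafenib range lay apart from both others.

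**Figure D1:**
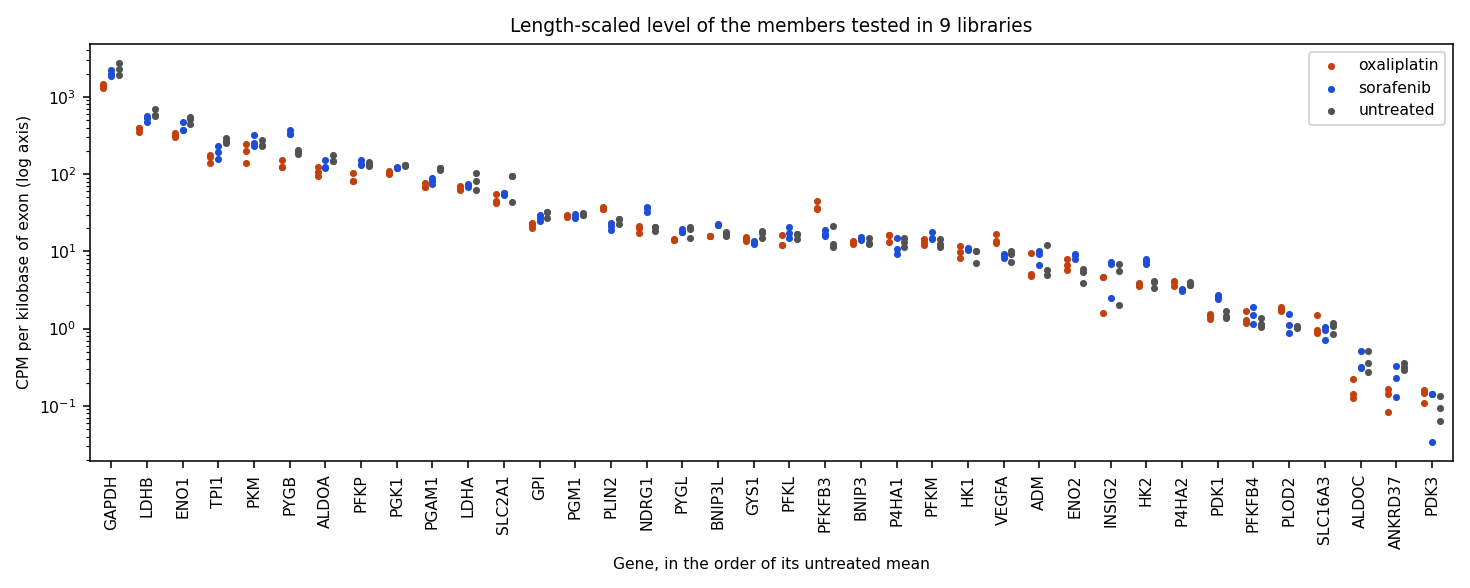
Level per kilobase of exon (log axis, CPM per kilobase) of the 38 members that passed the filter, with 1 point per library in oxaliplatin (orange), sorafenib (blue) and untreated cells (grey), ordered by the untreated mean. GAPDH stands above all other members in every library, between 1300 and 2765 CPM per kilobase, and PDK3, ANKRD37 and ALDOC lie at the low end.

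In oxaliplatin cells most glycolytic enzymes were called lower, and the set as a whole was not tested. Of 17 enzymes 10 fell and 0 rose against untreated cells, where 15.5% of all 16159 genes were called lower and 16.2% higher (31.7% in either direction; Benjamini-Hochberg adjusted p under 0.05, edgeR's quasi-likelihood test). Without untreated 2, untreated 3, oxaliplatin 1 or oxaliplatin 2, 2913 to 3311 genes were called in all, against 5123 with all libraries, and 7 to 9 enzymes. The median log2 fold change of the enzymes was -0.50, against 0.02 over all genes tested. The enzymes' share of all counts was 1.19% to 1.26% in oxaliplatin and 1.56% to 1.87% in untreated libraries. GAPDH contributed more counts to this share than any other enzyme. In bulk RNA, fewer cells expressing a gene and less of its RNA per cell cannot be told apart. In 10 of 17 enzymes every oxaliplatin library lay below every untreated one and in 0 above, where 23.2% of all genes tested lay all below, 24.9% all above and 48.1% did not overlap in either direction. With scaling by library size only, 8 enzymes were called lower and 1, ENO2, higher, and with the replicate block and the correction for GC content and length together 9 lower and 1 higher. The calls span the pathway, from GPI (phosphoglucose isomerase) and PFKP to ENO1 and LDHB.

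GAPDH had 4426, 4160.4 and 3874 CPM in oxaliplatin libraries 1 to 3, against 5753, 6920.1 and 8244 CPM in untreated libraries 1 to 3. The groups did not overlap, and its log2 fold change was -0.75 ± 0.14 (SE, adjusted p = 0.00533; -0.54, adjusted p = 0.0784, with the replicate block and the correction for GC content and length together). TPI1, triosephosphate isomerase, had 375, 474 and 453 CPM in oxaliplatin and 679.7, 727 and 793 CPM in untreated libraries. All 3 oxaliplatin values lay below the lowest untreated one, with a log2 fold change of -0.76 ± 0.15 (adjusted p = 0.00688). Genes named as pseudogenes of TPI1 took 8.48% to 12.2% of the counts given to TPI1 and them together. Those of GAPDH took 2.15% to 3.18% and those of LDHA 5.58% to 10.2%, so reads of these genes may be split.

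PGAM1, phosphoglycerate mutase, had 175, 177 and 195 CPM in oxaliplatin and 290.4, 309.7 and 312 CPM in untreated libraries. The spread within each group was small beside the gap, and the log2 fold change was -0.74 ± 0.10 (adjusted p = 0.0018), the smallest adjusted p of the 17 enzymes. LDHB had 1047, 1190.3 and 1190.3 CPM in oxaliplatin and 1687, 2091 and 1760.0 CPM in untreated libraries. It stood at 61.9% of its untreated level (log2 fold change -0.69 ± 0.12, adjusted p = 0.00397). ENO1, the main enolase, fell by 0.65 ± 0.13 on the log2 scale (adjusted p = 0.00595), PFKP by 0.59 ± 0.12 (adjusted p = 0.00674) and GPI by 0.50 ± 0.12 (adjusted p = 0.0112). These 7 enzymes stayed called whichever single library was left out. Among the enzymes called lower, exon overlap with other genes on the same strand was largest for ALDOA (1657 bases), LDHB (997) and GPI (542). How reads in such overlaps were counted is not given.

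Calls of 3 further enzymes rested on single libraries. ALDOA, the main aldolase, stood at -0.55 ± 0.14 on the log2 scale (adjusted p = 0.0151); the adjusted p was 0.0518 to 0.0658 without untreated 2, oxaliplatin 1 or oxaliplatin 2. PGK1, phosphoglycerate kinase, changed least of the 10, at -0.31 ± 0.09 (adjusted p = 0.0266); its adjusted p was 0.0629 to 0.0893 without untreated 2, untreated 3, oxaliplatin 1 or oxaliplatin 3, and 0.121 when libraries were scaled by size only. ALDOC, a minor aldolase, had 0.413, 0.651 and 0.365 CPM in oxaliplatin and 1.06, 1.49 and 0.796 CPM in untreated libraries. With 148 counts in all 9 libraries, its log2 fold change of -1.21 ± 0.40 (adjusted p = 0.0426) ended at an adjusted p of 0.0512 to 0.16 without untreated 1, untreated 2, oxaliplatin 1, oxaliplatin 3, sorafenib 1 or sorafenib 2.

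The other 7 enzymes did not pass the test. HK1, the housekeeping hexokinase, had 61.8, 51.5 and 73.9 CPM in oxaliplatin and 44.4, 63.9 and 64.6 CPM in untreated libraries. HK2, the inducible hexokinase, had 22.2, 21.5 and 23.6 CPM in oxaliplatin and 20.3, 25.0 and 24.2 CPM in untreated libraries. Both pairs of ranges overlapped, with log2 fold changes of 0.11 ± 0.17 (adjusted p = 0.635) and -0.04 ± 0.12 (adjusted p = 0.804).

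PKM, pyruvate kinase, had 1701, 1203 and 2124 CPM in oxaliplatin and 1961, 2037 and 2366 CPM in untreated libraries. Its oxaliplatin libraries spread widely, and the log2 fold change was -0.34 ± 0.20 (adjusted p = 0.212). LDHA, the muscle-type lactate dehydrogenase subunit, had 390.2, 438 and 399 CPM in oxaliplatin and 393, 509.8 and 636 CPM in untreated libraries. Untreated 1 lay within the oxaliplatin range; the log2 fold change was -0.33 ± 0.16 (adjusted p = 0.135), and -0.49 (adjusted p = 0.0167) without untreated 1. ENO2, the neuronal enolase, was the enzyme with the highest log2 fold change, 0.42 ± 0.18 (adjusted p = 0.0947; 0.54, adjusted p = 0.0342, with scaling by library size only, and 0.48, adjusted p = 0.0437, with block and correction). PFKL and PFKM, of liver and muscle type, stood at -0.25 and 0.05.

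The genes of transport, control and glycogen were called in oxaliplatin at a share near that of all genes. Called were 1 of 10 tested genes higher (PFKFB3) and 2 lower (PYGB and PYGL), 30% against the 31.7% of all genes. PFKFB3 makes fructose-2,6-bisphosphate, the activator of phosphofructokinase. It had 214, 223 and 272 CPM in oxaliplatin and 129, 69.5 and 76.9 CPM in untreated libraries. All oxaliplatin values lay above all untreated ones, of which untreated 1 was the highest, and the log2 fold change was 1.36 ± 0.22 (adjusted p = 0.00306), the largest among the 38 tested members. The related PFKFB4 had 7.79, 7.16 and 10.3 CPM in oxaliplatin and 8.27, 6.36 and 7.11 CPM in untreated libraries, which overlap (0.22 ± 0.22, adjusted p = 0.487).

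PYGB had 548, 552 and 676 CPM in oxaliplatin and 823, 917 and 859 CPM in untreated libraries. The groups stood apart, with a log2 fold change of -0.55 ± 0.12 (adjusted p = 0.00781). PYGL, the liver-type glycogen phosphorylase, had 67.2, 67.3 and 69.1 CPM in oxaliplatin and 71.7, 100.3 and 93.4 CPM in untreated libraries. Its log2 fold change of -0.38 ± 0.13 (adjusted p = 0.0447) was near the threshold: the adjusted p was 0.0623 to 0.162 without untreated 2, untreated 3, any of the oxaliplatin libraries, sorafenib 2 or sorafenib 3, and 0.11 with scaling by library size only.

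SLC2A1, the basal glucose transporter GLUT1, had 211, 199.9 and 265 CPM in oxaliplatin and 206, 445 and 446 CPM in untreated libraries. Untreated 1 lay at the level of the oxaliplatin libraries and the other 2 untreated libraries far above it. The log2 fold change was -0.70 ± 0.26 (adjusted p = 0.0669), and -0.98 (adjusted p = 0.00162) without untreated 1. SLC2A3 had 0 counts in oxaliplatin and untreated libraries and 1 count in sorafenib 2. PDK1, a kinase that shuts off pyruvate dehydrogenase, had 23.3, 19.8 and 21.8 CPM in oxaliplatin and 21.5, 20.5 and 25.3 CPM in untreated libraries (log2 fold change -0.05 ± 0.13, adjusted p = 0.773). Not called either were SLC16A3 (a lactate exporter), PDK3, PGM1 (phosphoglucomutase) and GYS1 (glycogen synthase), with log2 fold changes between -0.21 and 0.51.

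**Figure D2:**
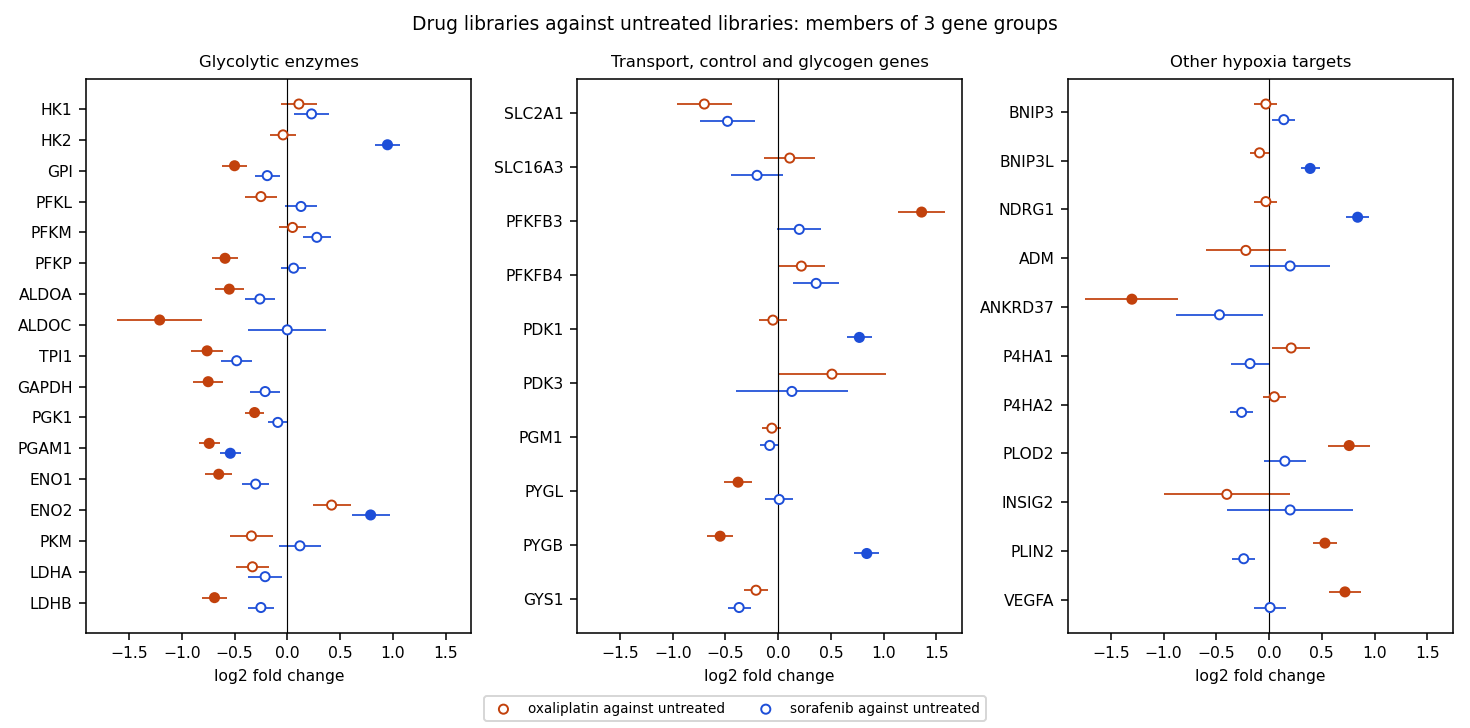
Log2 fold change (x axis) of the 38 tested members in oxaliplatin (orange) and sorafenib (blue) against the shared untreated libraries, by gene group; bars are standard errors and filled points passed the test at an adjusted p under 0.05. In the left panel 10 oxaliplatin points of enzymes are filled, all of them below 0, while HK2 and ENO2 are filled above 0 for sorafenib.

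Other hypoxia targets were called in oxaliplatin at a share near that of all genes. Of 11 genes 3 rose (PLOD2, PLIN2 and VEGFA) and 1 fell (ANKRD37), 36.4% against 31.7% of all genes. DESeq2 called 3 higher and 0 lower. The median log2 fold change was -0.03, and 0.09 with scaling by library size only. VEGFA, the endothelial growth factor, had 195, 187 and 245 CPM in oxaliplatin and 105, 145 and 132 CPM in untreated libraries. The ranges were apart, with a log2 fold change of 0.72 ± 0.15 (adjusted p = 0.00674). PLIN2, which coats lipid droplets, had 189, 179.8 and 182 CPM in oxaliplatin and 133, 135 and 113 CPM in untreated libraries. Its oxaliplatin libraries varied little, and the log2 fold change was 0.53 ± 0.11 (adjusted p = 0.00747).

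PLOD2, a lysyl hydroxylase of collagen, had 13.1, 13.3 and 14.5 CPM in oxaliplatin and 7.74, 8.29 and 8.12 CPM in untreated libraries. The log2 fold change was 0.76 ± 0.20 (adjusted p = 0.0174), and the adjusted p was 0.0502 without untreated 2 and 0.052 without untreated 3. ANKRD37, an ankyrin-repeat protein gene, averaged 0.336 ± 0.108 CPM in oxaliplatin and 0.837 ± 0.0983 CPM in untreated libraries on 97 counts in all. Its log2 fold change of -1.30 ± 0.44 (adjusted p = 0.0455) lost the call when any library other than sorafenib 2 was left out, at adjusted p values of 0.0515 to 0.139, and its exons share 909 bases with UFSP2 on the opposite strand. Without untreated 2 or untreated 3, 2 of the 11 genes were called.

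BNIP3, a mitophagy receptor and a standard readout of hypoxia-inducible factors, had 66.4, 71.7 and 71.2 CPM in oxaliplatin and 79.7, 66.7 and 67.8 CPM in untreated libraries. NDRG1, a stress-response gene strongly induced by hypoxia in many cells, had 197, 172 and 209 CPM in oxaliplatin and 205, 202 and 182 CPM in untreated libraries. Both overlapped, with log2 fold changes of -0.03 (SE 0.11 each). Genes named as pseudogenes of BNIP3 took 11.6% to 15.2% of the counts given to BNIP3 and them together, so its reads may be split. BNIP3L, ADM (adrenomedullin), the collagen prolyl hydroxylases P4HA1 and P4HA2 and INSIG2, a regulator of sterol synthesis, were not called, with log2 fold changes between -0.40 and 0.21.

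Fewer of these genes were called in sorafenib than in oxaliplatin, as were fewer of all genes tested (4.8% against 31.7%). Of 17 enzymes 2 rose and 1 fell, 17.6%, where 4.8% of all genes were called (2.82% higher, 1.97% lower); the enzymes' median log2 fold change was -0.09 against 0 over all genes. Of 10 genes of transport, control and glycogen 2 rose and 0 fell (20% called). Of the 11 other hypoxia targets 2 rose and 0 fell (18.2% called). Every sorafenib library lay above every untreated one for 3 enzymes (HK1, HK2 and ENO2) and below for 4 (TPI1, PGK1, PGAM1 and LDHB), where 15.5% of all genes lay all above, 14.3% all below and 29.8% did not overlap in either direction. The counts of calls depend on few libraries. Without untreated 2, untreated 3, sorafenib 2 or sorafenib 3, 1 enzyme and 1 other hypoxia target were called and 113 to 153 genes in all, against 775 with all libraries. Without untreated 1 or sorafenib 1, 1641 and 1743 genes were called. Without oxaliplatin 1 or 2, 386 and 446 genes were called. These libraries are in neither group compared and enter through the shared filter, scaling and estimate of spread. Without untreated 1, oxaliplatin 1 or oxaliplatin 2, 1 other hypoxia target was called. With GC content and length corrected for, the genes called in sorafenib split into 494 higher and 716 lower, against 456 and 319 without it.

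HK2 had 41.1, 45.4 and 47.7 CPM in sorafenib and 20.3, 25.0 and 24.2 CPM in untreated libraries. Every sorafenib value lay above every untreated one, and the log2 fold change was 0.95 ± 0.12 (adjusted p = 0.00472). ENO2 had 38.0, 34.6 and 39.8 CPM in sorafenib and 16.5, 23.1 and 25.6 CPM in untreated libraries. The groups did not overlap (log2 fold change 0.79 ± 0.18, adjusted p = 0.0395), but the adjusted p was 0.055 to 0.136 without untreated 2, untreated 3, oxaliplatin 1, oxaliplatin 2, sorafenib 2 or sorafenib 3. PGAM1 fell with 229.6, 190.4 and 208 CPM in sorafenib, against 290.4, 309.7 and 312 CPM in untreated libraries. Its log2 fold change was -0.54 ± 0.10 (adjusted p = 0.0238), with an adjusted p of 0.0851 to 0.104 without untreated 2, untreated 3, sorafenib 2 or sorafenib 3. PGAM1 was the member called lower in both drugs, which share their untreated libraries.

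Of the 10 enzymes called lower in oxaliplatin, 9 were not called in sorafenib, where fewer genes were called in all. This does not by itself show a difference between the drugs, and their direct comparison is given below. ENO1, ALDOA, GPI and PGK1 had log2 fold changes of -0.30, -0.26, -0.19 and -0.09 in sorafenib, and PFKP had 0.06. GAPDH had 5905, 5581 and 6571 CPM in sorafenib (log2 fold change -0.21 ± 0.14, adjusted p = 0.375) and LDHB 1677, 1408 and 1577 CPM (-0.25 ± 0.12, adjusted p = 0.228). TPI1 had 629.5, 524 and 422 CPM in sorafenib, all below its untreated values. Its log2 fold change was -0.48 ± 0.15 (adjusted p = 0.093), and -0.63 (adjusted p = 0.0322) without sorafenib 1.

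PKM, LDHA, HK1 and ALDOC had 2013 to 2729.6, 423 to 457, 64.8 to 70.0 and 0.908 to 1.5 CPM in sorafenib. None of these 4 was called in sorafenib, at log2 fold changes of 0.12, -0.21, 0.23 and 0.00.

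PYGB rose in sorafenib and fell in oxaliplatin. It had 1685, 1478 and 1493 CPM in sorafenib and 823, 917 and 859 CPM in untreated libraries, a log2 fold change of 0.84 ± 0.12 (adjusted p = 0.00622). PDK1 had 36.2, 40.5 and 37.8 CPM in sorafenib and 21.5, 20.5 and 25.3 CPM in untreated libraries. The groups did not overlap, and the log2 fold change was 0.77 ± 0.12 (adjusted p = 0.0131); the adjusted p was 0.0613 to 0.0647 without untreated 2, sorafenib 2 or sorafenib 3. PFKFB3 had 97.6, 114 and 103 CPM in sorafenib (0.20 ± 0.21, adjusted p = 0.602; 0.52, adjusted p = 0.0438, without untreated 1). SLC2A1 had 269, 254 and 266 CPM in sorafenib (-0.48 ± 0.26, adjusted p = 0.279; -0.76, adjusted p = 0.0108, without untreated 1). For both genes untreated 1 was the untreated library on the side of the drug libraries. PFKFB4 had 11.7, 7.04 and 9.16 CPM in sorafenib, and GYS1 averaged 55.4 ± 2.17 CPM in sorafenib and 71.4 ± 7.39 CPM in untreated libraries (-0.37 ± 0.11, adjusted p = 0.0809; adjusted p = 0.034 without untreated 1). With GYS1, PFKFB3 and SLC2A1 added, 5 genes of this group were called without untreated 1, and without untreated 2, sorafenib 2 or sorafenib 3 the number was 1.

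NDRG1 had 374, 318 and 358 CPM in sorafenib and 205, 202 and 182 CPM in untreated libraries. All sorafenib values lay above all untreated ones (log2 fold change 0.84 ± 0.11, adjusted p = 0.00568). BNIP3L, a mitophagy receptor related to BNIP3, had 93.2, 93.7 and 98.7 CPM in sorafenib and 67.8, 77.4 and 72.3 CPM in untreated libraries. The ranges were apart by a small margin (0.39 ± 0.09, adjusted p = 0.0436), and the adjusted p was 0.0568 to 0.162 when any library other than oxaliplatin 3 or sorafenib 1 was left out. BNIP3 had 82.9, 75.3 and 78.1 CPM in sorafenib (0.14 ± 0.11, adjusted p = 0.432) and VEGFA 133, 131 and 119.8 CPM (0.01 ± 0.15, adjusted p = 0.983). PLOD2 and PLIN2, which rose in oxaliplatin, had 6.68 to 11.7 and 97.0 to 119 CPM in sorafenib, with log2 fold changes of 0.15 and -0.24 that were not called.

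**Figure D3:**
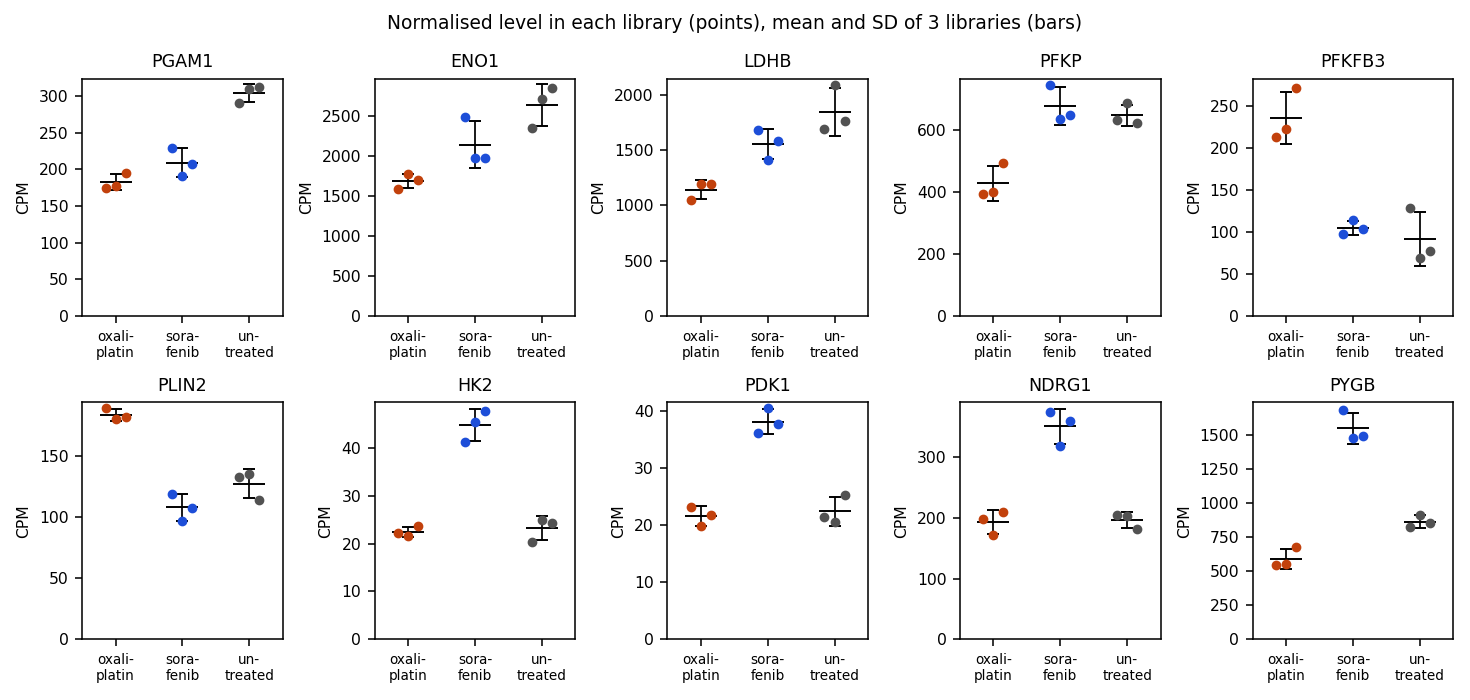
CPM in each library (points) with the mean and SD of 3 libraries (bars) for 10 members, oxaliplatin left, sorafenib in the middle, untreated right; axes start at 0. By mean, PGAM1, ENO1, LDHB and PFKP are lowest in oxaliplatin, PFKFB3 and PLIN2 are highest there, and HK2, PDK1, NDRG1 and PYGB are highest in sorafenib. The oxaliplatin and sorafenib libraries of PGAM1 overlap, and PGAM1 and ENO1 were not called between the drugs.

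Set directly against each other, the 2 drug groups differed in 11 of the 38 tested members: 3 were higher in oxaliplatin and 8 lower, while 10.3% of all genes were called (5.2% higher, 5.07% lower). With scaling by library size only, the split of all genes called was 1072 higher and 599 lower, against 840 and 819. Without oxaliplatin 1, oxaliplatin 2 or any sorafenib library, 572 to 956 genes were called, against 1659. PYGB was the member with the largest difference, 592 ± 73.1 CPM in oxaliplatin and 1552 ± 115 CPM in sorafenib (SD, n = 3 each; -1.39 ± 0.12 on the log2 scale, adjusted p = 0.000178). HK2 stood in oxaliplatin at 50.2% of its sorafenib level (-0.99 ± 0.12, adjusted p = 0.00133), NDRG1 at 55.1% (-0.86 ± 0.11, adjusted p = 0.00202) and PDK1 at 56.7% (-0.82 ± 0.13, adjusted p = 0.0045). PFKFB3 was 2.25-fold higher in oxaliplatin (log2 fold change 1.17 ± 0.22, adjusted p = 0.0107) and PLIN2 1.70-fold higher (0.77 ± 0.11, adjusted p = 0.00355). The adjusted p of PFKFB3 was 0.0513 without sorafenib 1.

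Of the 17 enzymes 4 were lower in oxaliplatin than in sorafenib, 0 were higher, and the median log2 fold change was -0.35 against -0.01 over all genes. These were HK2, PFKP (-0.66 ± 0.12, adjusted p = 0.0102), GAPDH (-0.54 ± 0.14, adjusted p = 0.0407) and LDHB (-0.44 ± 0.12, adjusted p = 0.0446). Leaving out 1 library gave adjusted p values up to 0.0549 for PFKP (without oxaliplatin 1), up to 0.125 for GAPDH (without untreated 2 or any drug library) and up to 0.166 for LDHB (without untreated 3 or any drug library); 1 or 2 enzymes were then called without any 1 of the 6 drug libraries. With scaling by library size only, the adjusted p was 0.052 for GAPDH and 0.0609 for LDHB, and with the correction for GC content and length GAPDH had -0.45 (adjusted p = 0.124). VEGFA was higher in oxaliplatin (0.71 ± 0.15, adjusted p = 0.0164; 0.0626 without sorafenib 3, and 0.53 with adjusted p = 0.0617 under the correction for GC content and length) and BNIP3L lower (-0.48 ± 0.09, adjusted p = 0.0132; 0.0518 to 0.0613 without oxaliplatin 1, oxaliplatin 2 or sorafenib 3). PLOD2 and PYGL were not called with all libraries (adjusted p = 0.0767 and 0.0812), but PLOD2 had 0.032 without sorafenib 3 and PYGL 0.0272 without untreated 1.

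Calls of several members moved when a trend of each library with GC content and exon length was taken out. VEGFA and PLOD2 in oxaliplatin then had log2 fold changes of 0.28 (adjusted p = 0.229) and 0.35 (adjusted p = 0.177), and neither was called. PDK1 in sorafenib had 0.42 (adjusted p = 0.0793), and in oxaliplatin it had -0.66 (adjusted p = 0.00581), a call that the uncorrected values did not give; NDRG1 in oxaliplatin likewise had -0.33 (adjusted p = 0.0481). BNIP3L in sorafenib had 0.29 (adjusted p = 0.0903). Of the enzymes in oxaliplatin, 12 of 17 were then called lower and 0 higher, with a median of -0.56 against -0.08 over all genes, and PFKL, PKM and LDHA joined while ALDOC left, and PFKM, not called, had -0.12 in place of 0.05. GPI had -0.83 in place of -0.50. The correction also turned the split of all genes called in oxaliplatin to 1864 higher and 3290 lower, against 2619 and 2504 without it and 3395 and 1794 with scaling by library size only, which shifted the median of all genes by 0.12. With the correction the median of the other hypoxia targets in sorafenib was -0.10, against 0.14 without it.

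**Figure D4:**
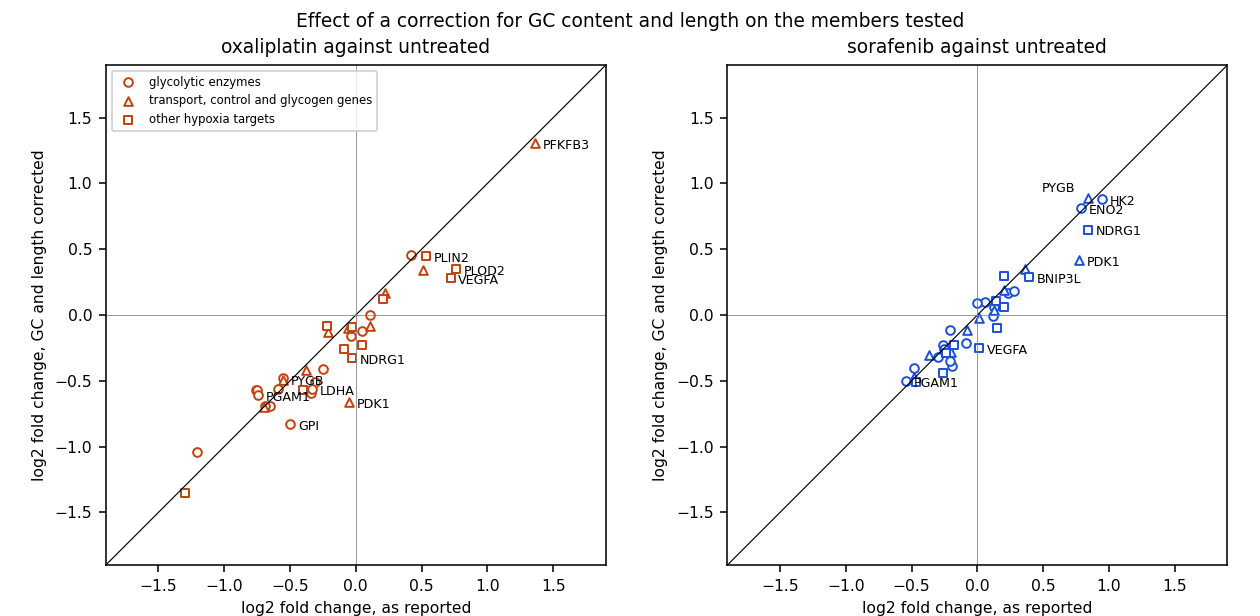
Log2 fold change of the 38 tested members as reported (x axis) and after correction for GC content and exon length (y axis). The panels show oxaliplatin (left) and sorafenib (right) against untreated libraries. Circles are enzymes, triangles transport, control and glycogen genes, squares other hypoxia targets, and the line marks equal values. In oxaliplatin PDK1, VEGFA, PLOD2 and GPI lie well below the line, and PFKFB3 stays at the top.

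Lists of neighbouring pathways placed these changes beside the rest of glucose metabolism. Of 26 genes of pyruvate entry and the citric acid cycle 9 fell and 0 rose in oxaliplatin, 34.6% called against 31.7% of all genes (15.5% lower), with a median log2 fold change of -0.31 against 0.02 over all genes. MDH2, mitochondrial malate dehydrogenase, averaged 228 ± 4.49 CPM in oxaliplatin and 339.8 ± 42.4 CPM in untreated libraries (-0.58 ± 0.12, adjusted p = 0.0066), and IDH3G, a subunit of isocitrate dehydrogenase, 63.8 ± 4.55 and 95.4 ± 6.02 CPM (-0.58 ± 0.11, adjusted p = 0.0059). Of 7 genes of the pentose phosphate pathway 3 fell and 0 rose (42.9% called, against 31.7% of all genes), among them PGD (-0.56 ± 0.13, adjusted p = 0.0107) and TALDO1 (-0.48 ± 0.12, adjusted p = 0.0138; 0.0551 without untreated 2 and 0.0549 without oxaliplatin 1). In sorafenib edgeR called 0 genes of both lists, with medians of -0.12 for the citric acid cycle and -0.19 for the pentose phosphate pathway. At an unadjusted p under 0.05, 1 gene of the citric acid cycle was higher and 3 lower, and 2 of the pentose phosphate pathway were lower; DESeq2 called 1 gene of each list lower.

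Among other isoforms of glycolysis, 9 of 18 were tested and 22.2% called, below the 31.7% of all genes. PDK4, a pyruvate dehydrogenase kinase, rose in oxaliplatin (1.01 ± 0.24, adjusted p = 0.0116) while HKDC1, a further hexokinase, fell (-0.48 ± 0.14, adjusted p = 0.0242; 0.0796 to 0.0932 without untreated 2, untreated 3, oxaliplatin 1 or oxaliplatin 2, and 0.051 with scaling by library size only). HKDC1 was abundant, with 237 ± 29.3 CPM in oxaliplatin, 246 ± 5.58 CPM in sorafenib and 331 ± 53.1 CPM in untreated libraries. Of 7 further glucose and lactate transporters tested, SLC2A2 (GLUT2) and SLC2A13 (a myo-inositol carrier) rose in oxaliplatin (28.6% called, against 31.7% of all genes). SLC2A2 averaged 18.2 ± 2.07 CPM in oxaliplatin and 7.14 ± 3.33 CPM in untreated libraries (1.35 ± 0.27, adjusted p = 0.00635), and SLC2A13 14.6 ± 2.16 and 8.09 ± 2.07 CPM (0.85 ± 0.20, adjusted p = 0.0121; 0.36, adjusted p = 0.187, with the correction for GC content and length). In sorafenib edgeR called 0 of the 9 isoforms (2 were higher and 2 lower at an unadjusted p under 0.05, and DESeq2 called 1 lower) and 1 transporter, SLC5A2, was lower at a mean under 1 CPM. SLC2A2 averaged 15.1 ± 0.976 CPM in sorafenib, above untreated in every library, with a log2 fold change of 1.08 ± 0.27 and an adjusted p of 0.051; it was called by DESeq2 (adjusted p = 0.00406), without a filter on low counts (0.0318), with a filter of a mean of at least 1 CPM (0.0491) and without untreated 1 (0.00188).

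In glycogen turnover 3 of 10 tested genes rose in oxaliplatin, 30% called and thus near the 31.7% of all genes, among them PHKB, a subunit of phosphorylase kinase (0.48 ± 0.11, adjusted p = 0.0123), and GBE1, the glycogen branching enzyme (0.44 ± 0.12, adjusted p = 0.0238). PHKB turned to -0.05 with the correction for GC content and length, and its adjusted p was 0.0523 without untreated 2. PCK2, mitochondrial phosphoenolpyruvate carboxykinase, was the gene called of 2 tested in gluconeogenesis and fell (-0.75 ± 0.22, adjusted p = 0.029; 0.0603 to 0.102 without untreated 2, untreated 3, oxaliplatin 1 or oxaliplatin 2). In sorafenib edgeR called 0 genes of both lists; at an unadjusted p under 0.05, 3 genes of glycogen turnover were higher and 0 of gluconeogenesis changed, and DESeq2 called 1 and 0.

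Of 20 tested genes on a further list of hypoxia-induced genes, 4 rose and 2 fell in oxaliplatin (30% called, near the 31.7% of all genes), and edgeR called 0 in sorafenib, with medians of 0.07 and 0.09. At an unadjusted p under 0.05, 3 were higher and 2 lower in sorafenib, and DESeq2 called 2 lower. ZNF395 and KDM4B, a histone demethylase, rose (0.72 ± 0.16, adjusted p = 0.00996, and 0.58 ± 0.13, adjusted p = 0.0115); KDM4B had 0.22 (adjusted p = 0.117) with the correction for GC content and length. CA9, which many cells express strongly under hypoxia, had at most 0.0917 CPM in a library. Of 7 tested genes of oxygen sensing, HIF1A and EPAS1, which encode HIF-1α and HIF-2α, rose in oxaliplatin (28.6% called, near the 31.7% of all genes). HIF1A had 6.65, 6.56 and 12.0 CPM in oxaliplatin, 8.42, 8.0 and 6.70 CPM in sorafenib and 5.28, 4.37 and 3.93 CPM in untreated libraries. Its log2 fold change was 0.89 ± 0.26 in oxaliplatin (adjusted p = 0.0264) and 0.77 ± 0.26 in sorafenib (adjusted p = 0.102). In oxaliplatin the adjusted p was 0.0627 to 0.0882 without untreated 2, untreated 3 or oxaliplatin 3, and in sorafenib it was 0.0487 without oxaliplatin 3. The correction for GC content and length gave 0.66 (adjusted p = 0.124) for HIF1A and 0.63 (adjusted p = 0.119) for EPAS1 in oxaliplatin, and the replicate block adjusted p values of 0.0589 and 0.0936. EPAS1 had 5.96, 9.06 and 4.99 CPM in oxaliplatin, 10.6, 7.38 and 12.5 CPM in sorafenib and 4.05, 3.48 and 4.14 CPM in untreated libraries. It was called in both drugs, at 0.78 ± 0.27 (adjusted p = 0.0492) in oxaliplatin and 1.39 ± 0.27 (adjusted p = 0.0239) in sorafenib. The oxaliplatin call ended when any library other than oxaliplatin 3 or sorafenib 2 was left out (adjusted p 0.0545 to 0.187), and the sorafenib call without untreated 2, untreated 3 or sorafenib 3 (0.0766 to 0.0984) or with the replicate block (0.0771).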

How the data were processed

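The deposited files hold read counts per gene for 9 libraries, counted with featureCounts against GRCh38 per the submitters' processing notes, which also name DESeq2; versions, aligner, annotation release, strand setting and treatment of multi-mapped reads are not given in the sources used here. The count tables were joined by gene, and genes passing edgeR's filterByExpr (minimum count 10) were tested, 16159 of 60683. Fits used R 4.3.3, edgeR 4.0.16 and limma 3.58.1: TMM factors, robust quasi-likelihood F tests over all 9 libraries with 1 coefficient per group, Benjamini-Hochberg adjustment over all genes tested, called at 0.05. Standard errors are the absolute log2 fold change over the square root of F. DESeq2 1.42.0 and 17 other settings were alternatives, each changing 1 choice except the replicate block combined with the GC and length correction. By GENCODE 29, GC content is that of a gene's longest transcript and length that of all its exons together. The procedure was tested on simulated data.

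The members and lists were chosen with earlier results of these data known. Levels are given per library for 16 members chosen by role, and for up to 4 called members of each group with the largest change in each drug and a mean of at least 1 CPM; from companion lists, up to 2 called genes per drug with the smallest adjusted p are named, and GBE1, CA9 and SLC5A2 were named after their values were seen. A gene that this rule names is not reported here.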

Additional observations from a re-analysis of the deposited data

How the results depend on the processing

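Of the members' calls, 9 of 17 in oxaliplatin, 2 of 7 in sorafenib and 5 of 11 between the drugs were made under all 18 alternatives. Over single genes and settings, 2385 values kept their direction (where called) and side of the threshold, 162 lost and 33 gained a call; sign changes of values not called are not counted. PHKB in oxaliplatin turned to -0.05 with the GC and length correction and to -0.05 with it and the replicate block; the cause was not tested. In sorafenib, all genes called numbered 775, and 1796 with DESeq2, 311 with only the 2 groups compared, 184 with the replicate block, 1210 with the GC and length correction and 299 with both; the enzymes' 3 calls became 1 with only the 2 groups and 1 with the block; the 2 of transport, control and glycogen became 1 with the block, 1 with the correction and 1 with both; the 2 other hypoxia targets became 1 without a filter on low counts, 1 with only the 2 groups, 1 with the block and 0 with block and correction. In oxaliplatin the 4 other hypoxia targets became 1 with block and correction. Between the drugs, 1659 genes became 809 with the block, and 4 enzymes became 2 with library size only, 2 with the block and 2 with block and correction.

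Leaving out 1 library gave, in oxaliplatin, 2913 to 5403 genes, 7 to 10 enzymes, 2 to 4 genes of transport, control and glycogen and 2 to 4 other hypoxia targets; in sorafenib 113 to 1743, 1 to 4, 1 to 5 and 1 to 2; and between the drugs 572 to 1949, 1 to 4, 2 to 4 and 3 to 4. Same-numbered libraries did not deviate together (correlations -0.111 to 0.036, 0 of 9 over 0.1), so the numbers are taken as names, and the block is given here without pairing being established. Total counts of 15797076 to 20936536 leave ALDOC, ANKRD37 and PDK3 with few counts.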
